A study of Homo sapiens with 2 samples.

Results

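TARBP2-bound RNA was examined along 8 genes known as markers of mesenchymal, basal-like breast cancer cells. They were the receptor tyrosine kinase genes EGFR, MET and AXL, the adhesion genes CD44, ITGB1 and ITGA3, the caveola gene CAV1 and the intermediate filament gene VIM. The genes are listed by name, and the rule uses no measured value. A deposited region was counted as a member when it overlapped the hg19 span of a gene by at least 1 nt on the gene's own strand. This rule gave 29 of the 23412 deposited regions (0.124%).

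The regions came from MDA-LM2, a line derived from human breast cancer cells by selection for metastasis to the lung. The cells had been transiently transfected with a vector for myc-tagged TARBP2, cross-linked with UV light 48 hours later and processed by HITS-CLIP with an anti-myc antibody. HITS-CLIP sequences the RNA fragments that stay cross-linked to a purified protein. The study held 1 group of 2 replicates and deposited 1 region list for both, so no value below has a replicate error. The tagged protein was introduced from a vector, and neither untransfected cells nor a control antibody formed a group.

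TARBP2 binds double-stranded and hairpin RNA through double-stranded RNA-binding domains. It is best known as a partner of Dicer in microRNA processing, and it has also been described as a binder of structured elements in messenger RNAs in metastatic breast cancer cells. EGFR, MET and AXL are cell-surface kinases that receive growth factor signals (EGF family ligands, HGF and GAS6, respectively). CD44 is a hyaluronan receptor, ITGB1 and ITGA3 pair into a laminin-binding integrin, CAV1 coats caveolae and VIM forms the filaments of mesenchymal cells. Levels of these RNAs were not measured, so few regions in a gene and little RNA from that gene cannot be told apart.

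AXL and ITGA3 held most of the regions, and the longest genes held few or none. AXL had 14 regions, ITGA3 had 9, CAV1 and VIM had 2 each, EGFR and ITGB1 had 1 each, and MET and CD44 had 0. AXL and ITGA3 thus held 23 of the 29 regions (79.3%) in 13.1% of the summed span of 589 kb. EGFR, MET, CD44 and ITGB1 made up 79.1% of the span and held 2 regions. With regions at most 1000 nt apart counted as 1, AXL had 8, ITGA3 had 4 and CAV1 had 1 of a total of 17, and the other genes kept their counts. The opposite strand of the same spans, which the rule did not use, had 0 regions. The gene-strand share of regions in the spans was thus 100% (exact binomial interval 88.1 to 100%). This interval treats regions of the same gene as independent and may be too narrow. How many regions the opposite strand would hold at the mean density was not computed. GENCODE 29 annotates RNAs on the opposite strand within EGFR (EGFR-AS1), CD44 (CD44-AS1), VIM (VIM-AS1), AXL and CAV1. It also lists ITGB1-DT and AK3P5 opposite ITGB1, whose span in GENCODE 29 is longer (105 kb) than the one used here (58.0 kb).

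**Figure D1:**
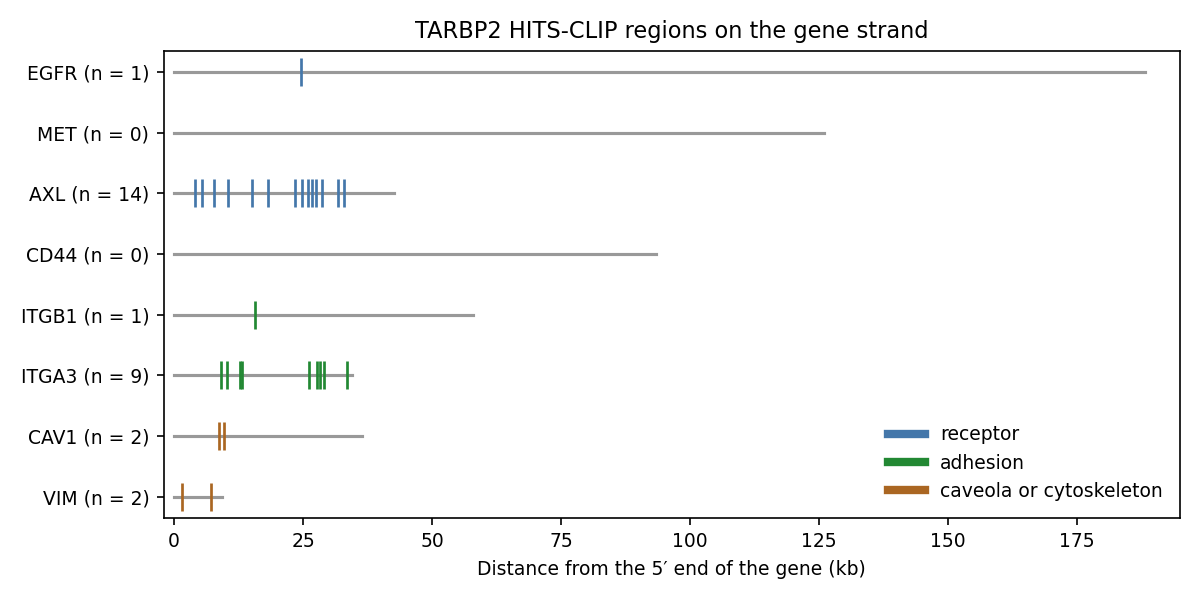
Each horizontal line is 1 gene drawn to its hg19 length, with distance from its 5′ end in kb, and each vertical mark is the midpoint of a TARBP2 region on the gene strand. Marks crowd AXL (14) and ITGA3 (9), while the lines of MET and CD44 carry none.

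Among the receptors, AXL stood far above EGFR and MET. AXL (chromosome 19, 41725108 to 41767671, plus strand) had 3.29 regions per 10 kb, with a 95% exact Poisson interval of 1.80 to 5.52. EGFR (chromosome 7, 55086725 to 55275031, plus strand) had 0.0531 per 10 kb (0.00134 to 0.296). MET (chromosome 7, 116312459 to 116438440, plus strand) had none in 126 kb, and a limit of 3 counts stands for 0.238 per 10 kb. The upper end of the exact Poisson interval, as given for the other genes, was 0.293 for MET. The density of AXL was 61.9-fold that of EGFR (exact conditional interval 9.42 to 2619). It was 13.8-fold the limit of 3 counts for MET, a value that leaves out the counting error of AXL. With regions within 1000 nt joined, these values were 35.4-fold (4.75 to 1570) and 7.89-fold. All such intervals cover counting error only. Neighbouring regions of a gene share transcripts and may share reads, so the intervals may be too narrow.

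Among the adhesion genes, ITGA3 had the highest density. ITGA3 (chromosome 17, 48133340 to 48167848, plus strand) had 2.61 regions per 10 kb (1.19 to 4.95). ITGB1 (chromosome 10, 33189246 to 33247293, minus strand), which encodes its integrin partner, had 0.172 per 10 kb (0.00436 to 0.960), so that ITGA3 was 15.1-fold denser (2.10 to 664). With regions within 1000 nt joined, 4 regions stood against 1, and the ratio was 6.73 with an interval that included 1 (0.666 to 331). CD44 (chromosome 11, 35160417 to 35253949, plus strand) had none in 93.5 kb, and a limit of 3 counts stands for 0.321 per 10 kb. The upper end of its exact Poisson interval was 0.394. The density of ITGA3 was 8.13-fold the limit of 3 counts, or 3.61-fold with regions joined, again without the counting error of ITGA3. AXL and ITGA3 themselves were not told apart, with a ratio of 1.26 (0.508 to 3.30).

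CAV1 and VIM lay between these extremes, with wide intervals. CAV1 (chromosome 7, 116164839 to 116201239, plus strand) had 0.549 regions per 10 kb (0.0665 to 1.98). VIM (chromosome 10, 17270258 to 17279592, plus strand) reached 2.14 per 10 kb (0.259 to 7.74) with only 2 regions, because it spans 9.34 kb. The order by density was AXL, ITGA3, VIM, CAV1, ITGB1 and EGFR, followed by MET and CD44 without a region. The interval of the ratio included 1 for AXL against VIM (0.353 to 13.9), for ITGA3 against VIM (0.252 to 11.6) and for ITGA3 against CAV1 (0.982 to 45.1). It did not include 1 for AXL against CAV1 (5.99-fold, 1.37 to 54.3), but did with regions within 1000 nt joined (6.84-fold, 0.917 to 304). Joining also put VIM ahead of AXL in density, at an AXL to VIM ratio of 0.877 (0.175 to 8.48).

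As a background, each gene was set beside the mean density of its chromosome and strand, taken from its first to its last deposited region and including stretches that are not transcribed. EGFR was close to it, at 1.29 times the 0.0410 regions per 10 kb of the plus strand of chromosome 7. ITGB1, with 1 region, was at 3.36 times its mean of 0.0512, which the interval of its density (0.00436 to 0.960) included. The interval of EGFR likewise included its mean. CAV1 was at 13.4 times, AXL at 47.3 times, ITGA3 at 54.8 times and VIM at 83.5 times the mean of its own chromosome and strand. These ratios have no interval, and that of VIM rests on 2 regions against 0.0240 at the mean, so their order is uncertain. At the means of their own chromosomes and strands, MET would have held 0.517 regions and CD44 0.349. The absence of regions from MET and CD44 was therefore not detectable as a depletion.

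**Figure D2:**
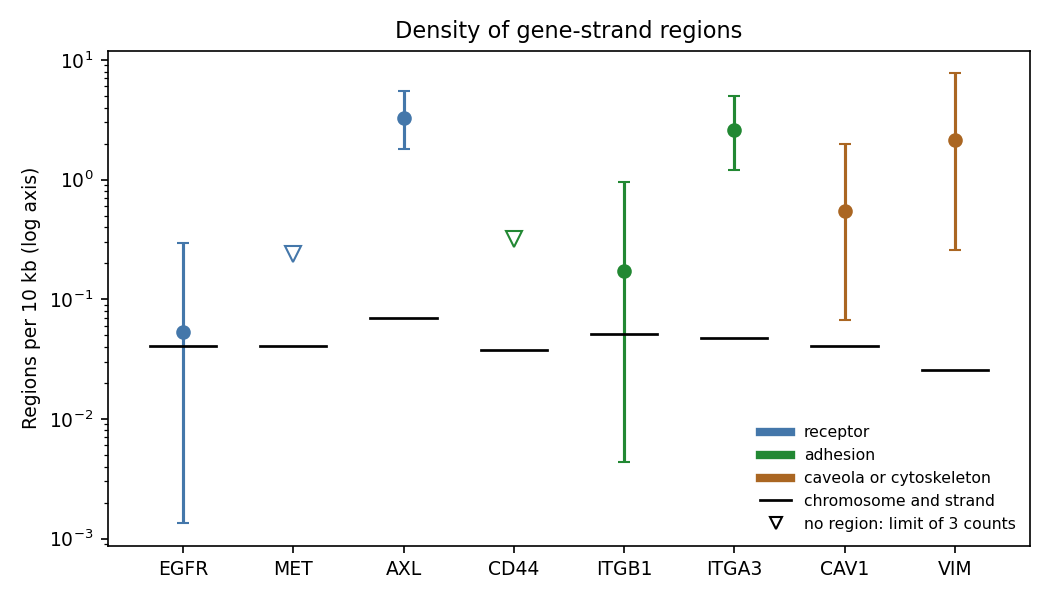
Points show regions per 10 kb of gene span on a log axis with 95% exact Poisson intervals, open triangles the limit of 3 counts for genes with no region, and black bars the mean of the gene's chromosome and strand. AXL (3.29) and ITGA3 (2.61) lie above their black bars by a wide margin, and the intervals of EGFR (0.0531) and ITGB1 (0.172) span their bars.

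The 14 regions of AXL were spread over 29.3 kb of the 42.6 kb gene. The first, at 41728913 to 41729361, began 3.81 kb from the 5′ end, and the last, at 41757942 to 41758210, ended 9.46 kb before the 3′ end. The stretch between them had a gap of at most 4899 nt, and the median gap was 1033 nt. Of the 14 midpoints, 6 lay nearer the 5′ than the 3′ end of the gene, with lengths of 224 to 519 nt among these. Lengths of the others were 262 to 1100 nt.

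The densest stretch of AXL lay past its middle. From 41749751 to 41754252, 5 regions covered 76.5% of 4.50 kb. This stretch held the longest region of the gene, 1100 nt at 41750488 to 41751587, which is longer than 98.3% of all deposited regions. A region of 982 nt at 41753271 to 41754252 and one of 700 nt at 41752254 to 41752953 lay beside it. A pair of 651 and 269 nt followed downstream, from 41756592 to 41758210. Together the 14 regions covered 6828 nt, or 16.0% of the gene.

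ITGA3 had its regions in 2 groups with an empty stretch of 12369 nt between them. The upstream group held 4 regions from 48142215 to 48146682 and covered 49.7% of 4.47 kb. Its longest region was 1085 nt, at 48143103 to 48144187, and its first began 8.88 kb from the 5′ end of the gene. The downstream group held 5 regions from 48159052 to 48167012 and covered 35.6% of 7.96 kb. It opened with a region of 1052 nt (48159052 to 48160103). Its last region, of 447 nt (48166566 to 48167012), ended 0.836 kb before the 3′ end. The 9 regions covered 5052 nt, or 14.6% of ITGA3, close to the share in AXL.

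**Figure D3:**
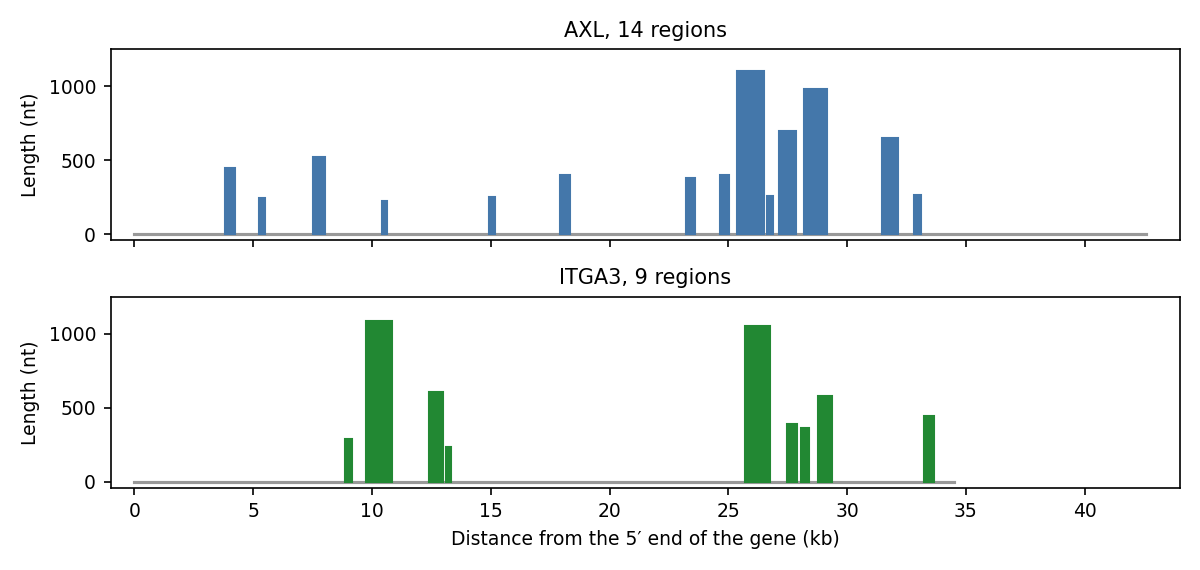
Each box is 1 region of AXL (top) or ITGA3 (bottom), placed by its distance from the 5′ end of the gene in kb and drawn as wide and as high as its length. AXL has a run of regions of up to 1100 nt between about 25 and 29 kb, and ITGA3 has 2 groups that each open with or include a region above 1000 nt.

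The single region of EGFR was 242 nt long, at 55111264 to 55111505, and began 24.5 kb from the 5′ end of the 188 kb gene. Its nearest neighbour on the same strand was 177 kb away. The first intron of EGFR in GENCODE 29 is 123 kb long. The single region of ITGB1 was 405 nt, at 33231337 to 33231741 on the minus strand, and began 15.6 kb from the 5′ end. It too was isolated, with its nearest same-strand neighbour 244 kb away.

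The regions of CAV1 lay side by side in the 5′ part of the gene. They were 551 nt (116173240 to 116173790) and 599 nt (116174117 to 116174715), began 8.40 and 9.28 kb from the 5′ end, and were 326 nt apart. The remaining 26.5 kb of CAV1, and all of its downstream neighbour MET, held none. The regions of VIM were 5025 nt apart near opposite ends of the gene. The one of 754 nt (17271453 to 17272206) began 1.20 kb from the 5′ end, and the one of 260 nt (17277232 to 17277491) ended 2.10 kb before the 3′ end. Over the 8 genes, 15 of 29 midpoints (51.7%, exact binomial interval 32.5 to 70.6%) lay nearer the 5′ than the 3′ end of their gene.

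As a set, the regions of these genes were longer than most regions of the data set and close in length to those in dense domains. Their median length was 405 nt, and the quartiles were 269 and 605 nt, against 253 nt with quartiles of 248 and 373.5 nt in the 23379 other regions of chromosomes 1 to 22 and X. Of the 29, 24 (82.8%, 64.2 to 94.2%) were at or above the median of all regions. AXL and ITGA3 supplied 19 of the 24. The most common length in the list, 249 nt, was carried by 1 member, in AXL (3.45%, 0.0873 to 17.8%), against 19.8% of the other regions. The members of at least 1000 nt were the 1 of AXL and the 2 of ITGA3 given above (10.3%, 2.19 to 27.4%), against 2.23% of the other regions. The 2059 regions in domains of at least 10, formed by joining same-strand regions at most 10 kb apart, had a median of 451 nt. They include the 14 regions of AXL. Of these, 85.9% were at or above the median of all regions, 5.83% were 249 nt long and 10.9% reached 1000 nt.

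**Figure D4:**
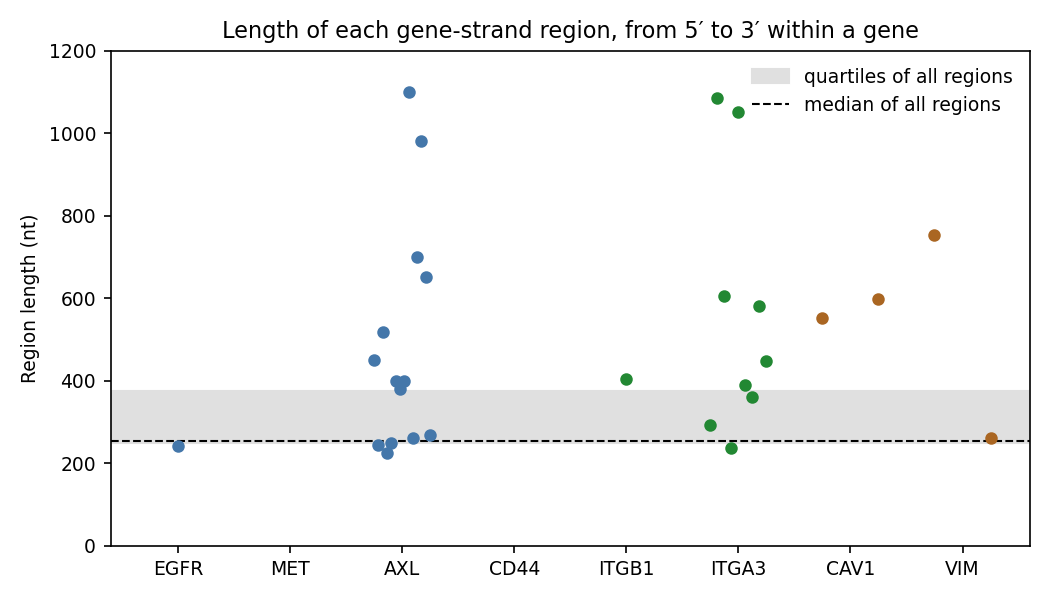
Each point is the length in nt of 1 region, ordered from 5′ to 3′ within its gene, the dashed line is the median of all regions (253 nt) and the grey band their quartiles. Regions of AXL and ITGA3 reach from 224 to 1100 nt, and both regions of CAV1 (551 and 599 nt) lie above the band.

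Region lengths were compared with exon lengths, which need no shared coordinates. No region was assigned to an exon or intron, since the gene models used were on GRCh38 and the regions on hg19. In each gene the transcript with the longest coding sequence in GENCODE 29 was taken. The longest internal exon of AXL was 223 nt, and each of its 14 regions was longer, as were 87.5% of all regions of the data set. In ITGA3 the longest internal exon was 250 nt, and 8 of 9 regions exceeded it, against 52.8% of all regions. The regions of EGFR, ITGB1 and CAV1 all exceeded it in their genes (200, 239 and 165 nt), lengths that 92.7, 81.8 and 97.2% of all regions exceeded. In VIM it was 710 nt, which 1 of 2 regions and 6.04% of all regions exceeded. Most regions of the list would thus exceed the internal exons of most of these genes, and nothing particular to the 27 of 29 members that did so can be read from the count.

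In the transcripts taken, the last exon was longer than the longest internal exon in AXL (2214 nt), CAV1 (2231 nt) and ITGA3 (620 nt). The same held in EGFR (6373 nt), CD44 (3274 nt) and ITGB1 (1317 nt). It was shorter in VIM (363 against 710 nt) and MET (456 against 1214 nt). The exons of the MET transcript summed to 4632 nt, against 7039 nt for all MET exons joined. Last exons of other transcripts were not compared. The regions nearest the 3′ end of the gene span stopped 9.46 kb before it in AXL and 26.5 kb in CAV1. The distance was 2.10 kb in VIM and 0.836 kb in ITGA3. In EGFR and ITGB1 the single region stopped 164 and 42.1 kb before the end of the span. The transcripts taken need not end where the spans do. They measured 33290 nt against a span of 34509 nt in ITGA3, and 35240 against 58048 nt in ITGB1. These distances therefore do not place a region inside or outside a last exon. The 6828 nt covered in AXL also exceeded the 5154 nt of all its annotated exons joined, by 1674 nt. With all exons joined this was so in AXL alone. ITGA3 had 5052 nt covered against 9802 nt of joined exons, CAV1 1150 against 4082 nt and VIM 1014 against 5158 nt. EGFR and ITGB1 had 1 short region each. Against the exons of the 1 transcript taken per gene, the covered length was greater in both AXL (4737 nt of exons) and ITGA3 (3665 nt). How far regions extend beyond bound RNA depends on the region caller, which no source used here names.

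Regions just outside the genes were counted in flanks of 50 kb. In the 50 kb upstream of the 8 genes there were 0 regions on the gene strand. In the 50 kb downstream there were 4, of which 3 followed AXL and 1 followed EGFR. The means of the chromosomes and strands of the 8 genes ran from 0.0257 (VIM) to 0.0696 (AXL) regions per 10 kb. How many regions the flanks would hold at these means was not computed, so the 0 upstream cannot be read as a depletion. The nearest to AXL began 4.37 kb past its 3′ end, at 41772042 to 41772725. The next protein-coding gene downstream of AXL on the same strand is HNRNPUL1. The region past EGFR began 13.5 kb from its end, at 55288545 to 55288800. On the opposite strand, the flanks of 50 kb held 1 region in all, upstream of ITGA3. The nearest gene-strand region upstream was 135 kb from AXL, 225 kb from ITGA3 and 744 kb from VIM. On either side of CD44 the gene strand was empty for 1032 kb upstream and 903 kb downstream.

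Under the same joining at 10 kb, the AXL regions formed 1 domain that lay wholly inside the gene. Of 15826 such domains in the data, 66 (0.417%) held 14 or more regions. AXL lay near the middle of the 135 domains of at least 10 regions. It had 0.478 regions per kb against a median of 0.433 (quartiles 0.353 and 0.551), and 23.3% of the domain was covered against a median of 24.0%. Its median region length of 399.5 nt stood beside a median of 439.5 nt. ITGA3 was divided by its empty stretch into domains of 4 and 5 regions, and CAV1 and VIM formed a domain of 2 each. Of the 29 regions, 27 (93.1%, 77.2 to 99.2%) had a same-strand neighbour within 10 kb, against 44.7% of the other regions. These were all 23 regions of AXL and ITGA3 and 4 of the 6 in the other genes. Being a neighbour is mutual, so the regions are not independent and the interval may be too narrow. The exceptions were the regions of EGFR and ITGB1.

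Each region carries a number in its name. These numbers increase along a strand and skip values, and 15.1% of all numbers were listed. No source used here says what the missing numbers stood for. From the first to the last region of AXL, 14 of 24 numbers were listed (58.3%, 36.6 to 77.9%). In ITGA3 it was 9 of 12 (75.0%, 42.8 to 94.5%), with a run of 8 successive numbers over 20.5 kb that spanned the empty stretch. A span from its first to its last listed region begins and ends with a listed number, which raises its share. The median over the 135 domains of at least 10 regions, counted in the same way, was 60.0%.

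The numbers missing around each gene were also counted. Between the nearest listed neighbours of MET, 376 kb apart, 4 numbers were missing. Only if missing numbers stood for unlisted regions would this limit those in MET to at most 4. Counted in the same way, 36 numbers were missing around CD44 over 2028 kb, the most of the 8 genes. The count was 10 over 806 kb for EGFR, 8 over 725 kb for ITGB1, 14 over 1201 kb for VIM and 23 over 4430 kb for CAV1. It was 18 over 182 kb for AXL and 26 over 814 kb for ITGA3. Where in these stretches the missing numbers lay is unknown.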

How the data were processed

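The titles of the samples give 2 replicates of MDA-LM2 cells with myc-tagged TARBP2, which form 1 group; the labels do not say that they were separate cultures. Per the submitters' processing notes, Bowtie was used and the build was hg19. No source used here gives the Bowtie version, the region caller, its thresholds, the pooling of replicates or the handling of multiply aligned reads, which set the number and length of regions. The authors deposited a score of 1 for every region, so depth per region or sample is unknown. Other values in the deposited list are region coordinates, with starts printed here 1-based.

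The 8 genes and their hg19 spans were chosen with earlier results of these data known. All 8 are named. Regions were given coordinates where a gene had at most 5, and otherwise for the first, the last, the longest and those of at least 1000 nt; the other coordinates, the groups within AXL and ITGA3, the comparison with dense domains and the exon lengths were chosen after the values were seen. Comparisons used chromosomes 1 to 22 and X. Shares have 95% exact Clopper-Pearson intervals, counts exact Poisson intervals, and ratios of 2 genes with regions exact conditional binomial intervals. All of them treat regions as independent, which neighbouring regions of a gene need not be, so they may be too narrow. A ratio to a gene without a region took 3 counts for that gene and has no interval. No test was run, since there is 1 group. GENCODE 29 (GRCh38) served for lengths, gene order and strand only. Sequences of the regions and a wider list of receptor, integrin and epithelial genes that had been planned were not analysed here, since an hg19 genome and annotation were not used. Alternatives were other overlap rules, spans, region sets, joined regions, flanks and gene sets. The counting was tested on simulated regions, and 200 of 200 spans returned the planted counts. Python 3.11.15, numpy 2.4.6, scipy 1.17.1 and matplotlib 3.10.9 were used.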

Additional observations from a re-analysis of the deposited data

How the results depend on the processing

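Of 107 values of the summary measures under other settings, 96 stayed within the interval of the main value or within 1.5 times a main count. Some of the 96 could not move, so this count does not measure robustness. The gene-strand share was 100% under every setting, and leaving out MET or CD44 removed no region. Counting by region midpoint or by whole regions, lengthening spans by 5 kb and leaving out regions of 249 nt moved no summary measure. Joining regions within 1000 nt lowered the count from 29 to 17 and the density over the 8 genes from 0.493 to 0.289 per 10 kb, by construction, with 8 left in AXL, 4 in ITGA3 and 1 in CAV1. It also brought 1 into the intervals of ITGA3 against ITGB1 and of AXL against CAV1, a comparison added after the values were seen. The summed values rest on AXL: without it there were 15 regions, 0.275 per 10 kb and 1.44% of span covered, against 2.50% with it. Without AXL and ITGA3, a setting added after the values were seen, there were 6 regions, 0.117 per 10 kb, 0.549% covered and 83.3% of midpoints nearer the 5′ end, and 66.7% of regions had a same-strand neighbour within 10 kb. At a distance of 1000 nt this last share was 65.5% over all 8 genes, against 93.1% within 10 kb. The region of EGFR was lost when only regions of at least the median length were kept. Flanks of 1 gene length held 5 gene-strand regions and flanks of 50 kb held 4. No paired analysis was possible because the list names no replicate, and for the same reason no replicate was left out. Depth is unknown, so regions could not be weighed by reads.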
